A study of Mus musculus with 12 samples.

Results

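This account covers 41 genes that leukocytes express, read on mouse lens capsules with their attached lens epithelial cells (LCs) after cataract surgery. They were taken by symbol from a written list, so no measured value decides membership, although the list itself was drawn up with earlier results of these data known. All 41 were found once each among the 45859 genes of the deposited tables. Fiber cells were removed through the cornea of adult mice 2 months of age, and the capsules were collected at 0 h or 24 h post cataract surgery (PCS). The WT mice were C57BL/6. The β8ITG-cKO mice carried floxed Itgb8 alleles with the lens-specific MLR10-cre transgene on a mixed C57BL/6 and 129S1/Sv background, so genotype and strain cannot be told apart, and the WT mice are not described as carrying Cre. There were 3 libraries for each of the 4 groups WT 0 h, WT 24 h, β8ITG-cKO 0 h and β8ITG-cKO 24 h, and each library pooled several capsules. All 4 groups had surgery, so 0 h is not an unoperated eye.

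Leukocytes carry surface proteins that most other cells lack. Neutrophils usually arrive first at a wound and are drawn by chemokines through CXCR2, while monocytes follow and can become macrophages, and long-lived macrophages already reside in many tissues. Both kinds bind vessel walls and complement through β2 integrins, which pair an α chain with ITGB2, and both read antibodies through Fc receptors that signal by adaptors with immunoreceptor tyrosine-based activation motifs (ITAMs). The lens itself has no blood vessels. In RNA from whole capsules, a lower value from fewer leukocytes cannot be told apart from less RNA per leukocyte. Nor do such values show whether the RNA of a listed gene came from leukocytes or from LCs and other cells.

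Values are FPKM (fragments scaled to the length of the transcript and to the mapped fragments of the library), which can be set side by side between genes. The summed FPKM of a library lay between 446531 and 740140, of which 10 genes held 36.0% to 49.6%, and the steps between low values gave relative depths of 0.866 to 1.09. Itgb8, the deleted gene, had 7.26 to 10.78 FPKM in the WT libraries at both times, 4.58 to 7.31 FPKM at β8ITG-cKO 0 h and 9.28 to 11.83 FPKM at β8ITG-cKO 24 h. The deletion removes 1 exon and these values cover the whole gene, so they do not check the genotype labels. A listed 0 may be an estimate that failed (the gene Cryaa, a main lens crystallin, was at 0 in 1 WT 0 h library only, its replicate 2), so zeros are given as listed. All 10 genes of a lens epithelium list reached 2 FPKM in every group mean. So did all 8 genes of a lens fiber list and, except for 1 gene at WT 24 h, all 10 of a retina photoreceptor list. Reaching that level therefore does not tell these tissues apart. The libraries summed to 11700 to 43300 FPKM over the lens epithelium list and to 75.9 to 1200 FPKM over the photoreceptor list.

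Over 24 h, leukocyte genes rose in both genotypes. A gene passed when the adjusted p of the limma fit on log2(FPKM + 1) was at most 0.05, and was called when the group means also differed by more than 2-fold and by more than 2 FPKM with at least 2 FPKM in 1 group. In WT, 15 of the 41 genes were called higher at 24 h and 0 lower, where 10.3% of the 15146 genes tested were called higher and 3.92% lower. In β8ITG-cKO, 13 of the 41 were called higher and 0 lower, where 11.3% of 15237 genes were called higher and 3.77% lower. On the adjusted p alone, 18 genes passed as higher in WT and 20 in β8ITG-cKO, beside 20.9% and 35.4% of all genes tested. As lower, 0 passed, beside 8.81% and 10.7% of all genes. Overlap was counted for the genes tested, 24 of the 41 in WT and 25 in β8ITG-cKO. In 20 of them in WT and 21 in β8ITG-cKO all 3 libraries at 24 h lay above all 3 at 0 h. The same held for 31.3% and 42.9% of all genes tested. In 0 of them the 24 h libraries lay below, as in 15.6% and 14% of all genes tested. A total of 17 genes passed in both genotypes, 17 of the 18 in WT and 17 of the 20 in β8ITG-cKO.

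Many of these genes were so low at 0 h that only their level at 24 h brought them into the test. Of the 41 genes, 24 passed the filter on low values (a mean of 0.5 FPKM over the 6 libraries) in WT, and 13 of those 24 did so only through 24 h. The other 11 already had a mean of at least 0.5 FPKM at 0 h, and 7 of them were called higher. In β8ITG-cKO, 25 passed the filter, 12 of them already at 0.5 FPKM or more at 0 h, and 7 of the 12 were called higher. A total of 11 genes were tested in no comparison, namely Itgax, Adgre1, Cd163, Lyz1, Ngp, Camp, Ltf, Elane, Mpo, Cd3e and Cd79a. Over the genes tested the median log2 change was 1.59 in WT and 1.28 in β8ITG-cKO, beside 0.16 and 0.23 over all genes. Those medians include 13 genes in each genotype that were tested only through 24 h. For these the filter itself required a higher mean at 24 h, so the medians do not measure a rise apart from the filter.

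**Figure D1:**
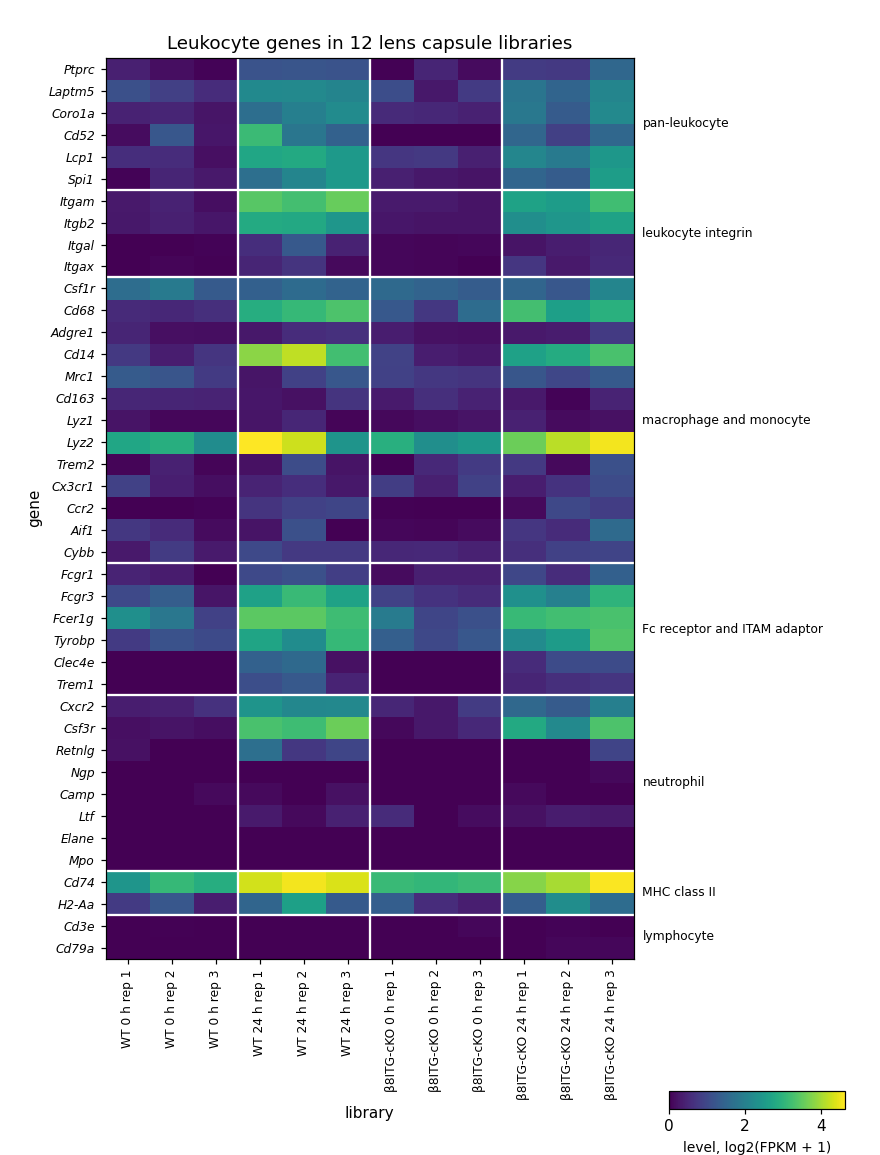
Level of each of the 41 genes (rows, by role) in each of the 12 libraries (columns), as log2(FPKM + 1) in colour. The 24 h columns are brighter for integrin, Fc receptor, Cd14, Csf3r and Cd74 rows, while rows such as Csf1r keep a similar colour in all 4 groups and rows from Ngp to Mpo are dark throughout.

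Of the leukocyte integrin genes, the αM and β2 chains rose. Itgam (chromosome 7, 128062640 to 128118491) encodes αM, the CD11b chain of complement receptor 3 on neutrophils, monocytes and macrophages. In WT it had 0.24, 0.36 and 0.13 FPKM at 0 h and 9.69, 8.42 and 10.68 FPKM at 24 h. The β8ITG-cKO libraries had 0.26, 0.26 and 0.19 FPKM at 0 h and 5.35, 4.90 and 8.21 FPKM at 24 h. The times did not overlap in either genotype, and the log2 change was 3.09 ± 0.17 (SE, adjusted p = 6.58e-05) in WT and 2.5 ± 0.18 (adjusted p = 4.81e-05) in β8ITG-cKO. Its ratio of means was 39.5 in WT and 25.9 in β8ITG-cKO.

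Itgb2 (chromosome 10, 77530329 to 77565681), the shared β2 chain, had 0.23, 0.32 and 0.22 FPKM at WT 0 h and 6.06, 5.96 and 4.38 FPKM at WT 24 h. Levels in β8ITG-cKO were 0.21, 0.18 and 0.19 FPKM at 0 h and 3.86, 4.38 and 5.35 FPKM at 24 h. The log2 change was 2.35 ± 0.17 (adjusted p = 0.000212) in WT and 2.2 ± 0.14 (adjusted p = 2.94e-05) in β8ITG-cKO. The other α chains stayed low. Itgal, the αL chain of lymphocytes and other leukocytes, ranged from 0.01 to 0.06 FPKM at 0 h and from 0.19 to 1.45 FPKM at 24 h. Itgax, the αX chain used to mark dendritic cells, ranged from 0 to 0.06 FPKM at 0 h and from 0.09 to 0.66 FPKM at 24 h. The 2 were not tested over time in either genotype.

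The neutrophil genes split into receptors that rose and granule genes that stayed at or near 0. Csf3r (chromosome 4, 126011163 to 126044975) encodes the receptor for G-CSF, the growth factor of neutrophils. It had 0.14, 0.18 and 0.13 FPKM at WT 0 h and 8.80, 8.12 and 10.96 FPKM at WT 24 h. In β8ITG-cKO it had 0.07, 0.23 and 0.45 FPKM at 0 h and 6.00, 3.51 and 9.15 FPKM at 24 h. The log2 change was 3.15 ± 0.17 (adjusted p = 6.55e-05) in WT, where Cd14 and Itgam lay within its SE, and 2.46 ± 0.28 (adjusted p = 0.000377) in β8ITG-cKO.

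Cxcr2 (chromosome 1, 74153994 to 74161246), the receptor for neutrophil-attracting CXC chemokines, had 0.29, 0.33 and 0.58 FPKM at WT 0 h and 4.23, 3.42 and 3.49 FPKM at WT 24 h. The β8ITG-cKO libraries had 0.41, 0.23 and 0.74 FPKM at 0 h and 1.94, 1.52 and 2.97 FPKM at 24 h. It passed in both genotypes, with a log2 change of 1.75 ± 0.17 (adjusted p = 0.000646) in WT and 1.1 ± 0.21 (adjusted p = 0.00404) in β8ITG-cKO. In β8ITG-cKO it was not called, because its means differed by less than 2 FPKM. Retnlg, a resistin-like secreted protein of neutrophils, was listed at 0.16, 0 and 0 FPKM at WT 0 h and had 2.22, 0.68 and 0.96 FPKM at WT 24 h, which passed (adjusted p = 0.0212) but no longer did without any 1 of the 3 libraries at 0 h (log2 1.03 to 1.14). The gene in β8ITG-cKO was listed at 0 in 5 of 6 libraries and at 0.92 FPKM in 24 h replicate 3.

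The other neutrophil genes encode granule proteins made mainly while neutrophils mature in bone marrow. Elane (neutrophil elastase) and Mpo (myeloperoxidase) were listed at 0 in all 12 libraries. Ngp and Camp did not exceed 0.16 FPKM in any library, and Ltf (lactoferrin) reached 0.48 FPKM at most, in a β8ITG-cKO 0 h library. Thus 5 of the 8 neutrophil genes were under 0.5 FPKM everywhere.

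Macrophage and monocyte genes did not move as 1 block. Of the 13, 6 were tested over time in WT and 9 in β8ITG-cKO. As higher, 2 passed in WT (Cd68 and Cd14) and 4 in β8ITG-cKO (Cd68, Cd14, Lyz2 and Aif1). Over all genes tested, 20.9% and 35.4% passed as higher. As lower, 0 passed, beside 8.81% and 10.7% of all genes tested. Cd14, the lipopolysaccharide co-receptor of monocytes, macrophages and neutrophils, had 0.70, 0.29 and 0.64 FPKM at WT 0 h and 13.07, 17.17 and 8.31 FPKM at WT 24 h. Levels in β8ITG-cKO were 0.88, 0.30 and 0.23 FPKM at 0 h and 5.26, 6.20 and 8.86 FPKM at 24 h. Its log2 change was 3.12 ± 0.26 (adjusted p = 0.000349) in WT and 2.4 ± 0.22 (adjusted p = 0.000142) in β8ITG-cKO. Cd68, a lysosomal membrane protein of phagocytes, had 0.47, 0.43 and 0.55 FPKM at WT 0 h and 6.36, 7.53 and 9.03 FPKM at WT 24 h. In β8ITG-cKO it started higher, at 1.41, 0.69 and 2.09 FPKM, and had 8.48, 5.13 and 6.67 FPKM at 24 h. Its log2 change was 2.53 ± 0.17 (adjusted p = 0.00016) in WT and 1.72 ± 0.25 (adjusted p = 0.00107) in β8ITG-cKO.

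Lyz2, the lysozyme of myeloid cells, had 5.69, 6.51 and 3.77 FPKM at WT 0 h and 23.71, 18.44 and 4.26 FPKM at WT 24 h. The third WT 24 h library lay inside the 0 h range, and the WT change did not pass (log2 1.13 ± 0.53, adjusted p = 0.144). Without that library it was 1.82 and passed. In β8ITG-cKO it had 6.59, 3.89 and 4.55 FPKM at 0 h and 11.03, 16.82 and 22.46 FPKM at 24 h, which passed (log2 1.54 ± 0.26, adjusted p = 0.00223). Its near-identical neighbour Lyz1 did not exceed 0.41 FPKM, and reads shared by the 2 genes could have been divided between them. Aif1, the calcium-binding protein IBA1, ranged from 0 to 1.19 FPKM over the WT libraries, from 0.05 to 0.10 FPKM at β8ITG-cKO 0 h and from 0.48 to 2.03 FPKM at β8ITG-cKO 24 h (adjusted p = 0.0278 in β8ITG-cKO, lost without any 1 library at 0 h, log2 0.86 to 0.9).

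The genes used to mark macrophages did not move alike. Of those often read as marks of resident cells, Csf1r and Mrc1 were present at 0 h and did not pass over time in either genotype, while Aif1 passed in β8ITG-cKO. Outside the 41 genes, the phagocytic receptor gene Mertk passed as higher in both (log2 1.02 ± 0.17, adjusted p = 0.00488 in WT and 0.75 ± 0.2, adjusted p = 0.0194 in β8ITG-cKO). In its list of 22 macrophage genes, 17 were tested in each genotype. There 10 passed as higher in WT, 12 in β8ITG-cKO and 0 as lower, where 20.9% and 35.4% of all genes tested passed as higher. Lyve1 and Ms4a7, not tested in WT, fell there without overlap. They had 0.53 to 0.92 and 0.27 to 0.55 FPKM at WT 0 h, and at most 0.29 and 0.23 FPKM at WT 24 h. In β8ITG-cKO both overlapped between the times, with 0.03 to 0.33 and 0 to 0.14 FPKM at 0 h and 0.3 to 0.56 and 0 to 0.42 FPKM at 24 h. Folr2 fell without overlap in β8ITG-cKO, from 0.96 to 1.73 FPKM to 0.45 to 0.94 FPKM, and did not pass. In WT it went the other way, higher at 24 h without overlap, and did not pass either (log2 0.23, adjusted p = 0.351). Csf1r, the receptor on which most macrophages depend, ranged from 1.47 to 2.72 FPKM at WT 0 h and from 1.68 to 2.07 FPKM at WT 24 h. In β8ITG-cKO it ranged from 1.55 to 1.98 FPKM at 0 h and from 1.40 to 3.33 FPKM at 24 h. The log2 change was -0.12 (95% confidence interval -0.57 to 0.34, adjusted p = 0.681) in WT and 0.16 (-0.34 to 0.67, adjusted p = 0.574) in β8ITG-cKO. Those intervals leave room for changes of modest size in either direction.

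Mrc1, the mannose receptor CD206, ranged from 0.72 to 1.51 FPKM at WT 0 h and from 0.20 to 1.39 FPKM at WT 24 h. In β8ITG-cKO it was 0.62 to 0.85 FPKM at 0 h and 0.97 to 1.49 FPKM at 24 h, where the times did not overlap but the change did not pass (log2 0.4 ± 0.14, adjusted p = 0.0535). Cx3cr1, the fractalkine receptor, ranged from 0.13 to 1.07 FPKM over all 12 libraries. The scavenger receptor gene Cd163 ranged from 0.03 to 0.63 FPKM and Adgre1, which encodes the F4/80 antigen, from 0.12 to 0.72 FPKM, both too low to be tested over time. Ccr2, the CCL2 receptor of inflammatory monocytes, was at most 0.03 FPKM in the 6 libraries at 0 h and 0.09 to 1.0 FPKM in the 6 at 24 h, and was too low to be tested over time. Trem2 ranged from 0 to 1.19 FPKM and Cybb, the NADPH oxidase chain of phagocytes, from 0.25 to 1.04 FPKM, and where they were tested (Trem2 in β8ITG-cKO, Cybb in both genotypes) the change over time did not pass.

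**Figure D2:**
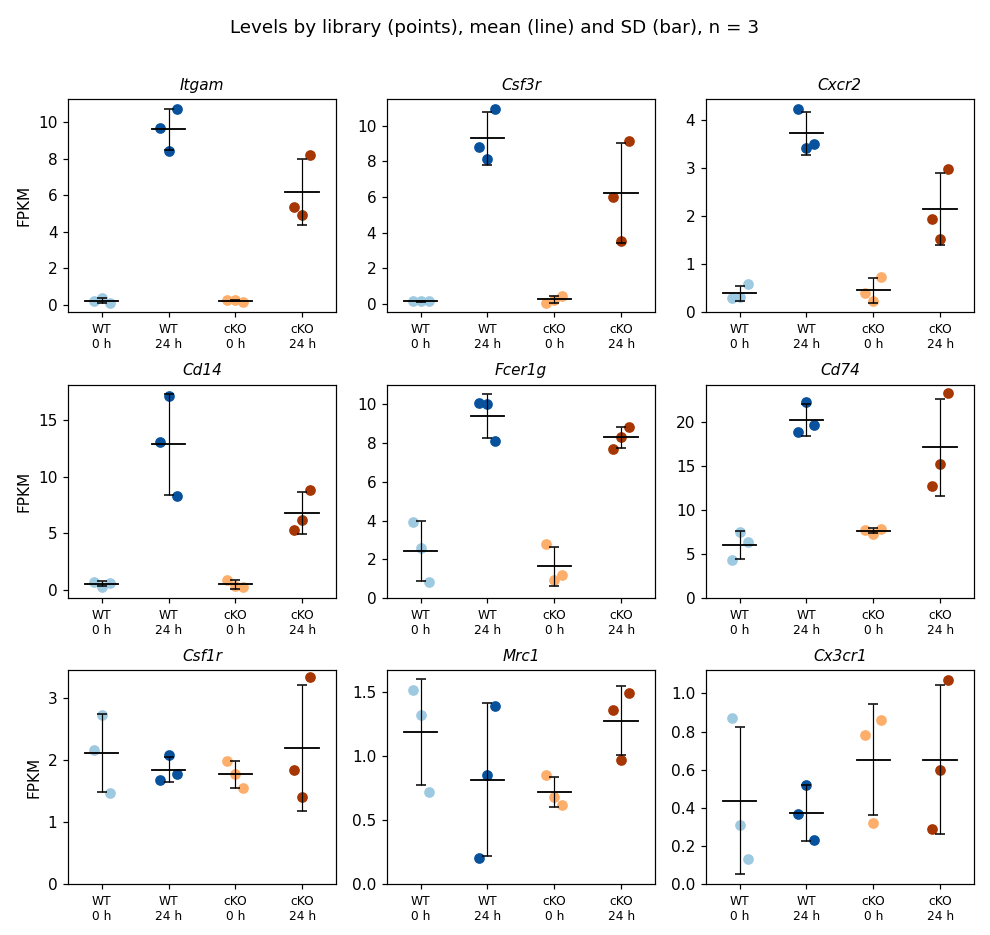
FPKM of 9 genes by group, with a point per library, a line at the mean and a bar for the SD (n = 3 libraries). In the plots of Itgam, Csf3r, Cxcr2 and Cd14 every 24 h point lies above every 0 h point of its genotype, and in those of Csf1r and Cx3cr1 the times overlap in both genotypes.

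Of the 6 genes of Fc receptors and their ITAM adaptors, 4 passed as higher in each genotype, beside 20.9% of all genes tested in WT and 35.4% in β8ITG-cKO. Fcer1g, the adaptor γ chain shared by several Fc receptors, had 3.93, 2.58 and 0.85 FPKM at WT 0 h and 10.06 and 8.10 FPKM in replicates 1 and 3 of WT 24 h, with replicate 2 between them. The β8ITG-cKO libraries had 2.80, 0.95 and 1.19 FPKM at 0 h and 7.70, 8.31 and 8.82 FPKM at 24 h. The log2 change was 1.69 ± 0.33 (adjusted p = 0.00867) in WT and 1.87 ± 0.24 (adjusted p = 0.000614) in β8ITG-cKO. Tyrobp, the adaptor DAP12, had 0.72, 1.23 and 1.06 FPKM at WT 0 h and 5.53, 3.74 and 7.59 FPKM at WT 24 h. Levels in β8ITG-cKO were 1.63, 1.01 and 1.39 FPKM at 0 h and 3.72, 4.85 and 9.37 FPKM at 24 h. It rose by 1.69 ± 0.24 (adjusted p = 0.00264) and 1.5 ± 0.28 (adjusted p = 0.00347) on the log2 scale.

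Fcgr3, a low-affinity IgG receptor, had 1.02, 1.59 and 0.20 FPKM at WT 0 h and 5.23, 7.78 and 5.35 FPKM at WT 24 h. In β8ITG-cKO it had 0.89, 0.60 and 0.49 FPKM at 0 h and 4.0, 3.06 and 7.07 FPKM at 24 h. The log2 change was 1.93 ± 0.3 (adjusted p = 0.00355) in WT and 1.73 ± 0.25 (adjusted p = 0.00108) in β8ITG-cKO. Fcgr1, the high-affinity IgG receptor, was lower, at 0.01 to 0.37 FPKM at 0 h and 0.50 to 1.69 FPKM at 24 h, and passed in both genotypes (adjusted p = 0.0266 and 0.0369). The pass was lost in WT without any 1 library but 24 h replicate 3 (log2 0.61 to 0.82), and in β8ITG-cKO without any 1 library at 0 h or 24 h replicate 1 (0.6 to 0.74). Clec4e (Mincle) and Trem1, both of which signal through ITAM adaptors, were listed at 0 in all 6 libraries at 0 h and were above 0 in all 6 at 24 h. Clec4e had 1.71, 2.00 and 0.16 FPKM at WT 24 h (adjusted p = 0.0527) and 0.48, 1.07 and 1.09 FPKM at β8ITG-cKO 24 h, and Trem1 ranged from 0.37 to 1.46 FPKM.

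All 6 pan-leukocyte genes passed as higher at 24 h in both genotypes, beside 20.9% of all genes tested in WT and 35.4% in β8ITG-cKO. Lcp1, the actin-bundling L-plastin, had 0.52, 0.50 and 0.14 FPKM at WT 0 h and 5.67, 6.02 and 4.65 FPKM at WT 24 h. The β8ITG-cKO libraries had 0.66, 0.70 and 0.33 FPKM at 0 h and 3.37, 2.73 and 4.49 FPKM at 24 h. It rose by 2.22 ± 0.19 (adjusted p = 0.000365) and 1.53 ± 0.18 (adjusted p = 0.000434) on the log2 scale. Spi1, the myeloid transcription factor PU.1, had 0.03, 0.39 and 0.24 FPKM at WT 0 h and 2.23, 3.29 and 4.58 FPKM at WT 24 h. Levels in β8ITG-cKO were 0.32, 0.23 and 0.19 FPKM at 0 h and 1.83, 1.54 and 4.94 FPKM at 24 h. Its log2 change was 1.81 ± 0.24 (adjusted p = 0.00202) in WT and 1.49 ± 0.3 (adjusted p = 0.00541) in β8ITG-cKO.

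Ptprc, the pan-leukocyte phosphatase CD45, stayed below 2 FPKM. It had 0.33, 0.13 and 0.03 FPKM at WT 0 h and 1.27, 1.34 and 1.26 FPKM at WT 24 h. In β8ITG-cKO it had 0.02, 0.39 and 0.10 FPKM at 0 h and 0.75, 0.70 and 1.93 FPKM at 24 h. The change passed in both (adjusted p = 0.00632 and 0.0251) but missed the level for a call, and in β8ITG-cKO it no longer passed without 0 h replicate 1 or 3 (log2 0.74 and 0.78). Coro1a, the actin regulator coronin of leukocytes, had 0.36, 0.39 and 0.20 FPKM at WT 0 h, 2.17, 3.01 and 3.70 FPKM at WT 24 h, 0.47, 0.43 and 0.35 FPKM at β8ITG-cKO 0 h, and 2.62, 1.5 and 3.51 FPKM at β8ITG-cKO 24 h. Laptm5, a lysosomal protein of blood cells, had 1.19, 0.83 and 0.51 FPKM at WT 0 h, 3.59, 3.54 and 3.23 FPKM at WT 24 h, 1.14, 0.23 and 0.72 FPKM at β8ITG-cKO 0 h, and 2.47, 1.82 and 3.29 FPKM at β8ITG-cKO 24 h. For these genes the log2 change in WT and β8ITG-cKO was 1.57 and 1.28 (Coro1a) and 1.29 and 1.07 (Laptm5), and times did not overlap. Cd52, a small glycoprotein of lymphocytes and myeloid cells, was uneven among the WT libraries, with 0.11, 1.40 and 0.21 FPKM at 0 h and 7.89, 2.52 and 1.70 FPKM at 24 h (log2 1.57 ± 0.47, adjusted p = 0.041). Leaving out WT 24 h replicate 1 lowered that to 1.06, which no longer passed, and it also did not pass without 0 h replicate 1 or 3 or 24 h replicate 2 (1.36 to 1.73). The gene in β8ITG-cKO was at 0 in all 3 libraries at 0 h and had 1.89, 0.83 and 1.92 FPKM at 24 h.

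MHC class II genes were already among the higher of the 41 at 0 h. Cd74, the invariant chain that escorts class II molecules, had 4.33, 7.52 and 6.40 FPKM at WT 0 h and 18.88, 22.28 and 19.67 FPKM at WT 24 h. The β8ITG-cKO libraries had 7.79, 7.32 and 7.88 FPKM at 0 h and 12.79, 15.31 and 23.34 FPKM at 24 h. It rose by 1.61 ± 0.19 (adjusted p = 0.00141) and 1.03 ± 0.2 (adjusted p = 0.00399) on the log2 scale. H2-Aa, the α chain of a class II molecule, had 0.72, 1.39 and 0.30 FPKM at WT 0 h and 1.83, 5.19 and 1.49 FPKM at WT 24 h (adjusted p = 0.0793). Levels in β8ITG-cKO were 1.61, 0.50 and 0.31 FPKM at 0 h and 1.60, 3.81 and 2.09 FPKM at 24 h (adjusted p = 0.0357), where the lowest 24 h value lay under the highest 0 h value. That pass was lost without 0 h replicate 2 or 3 or 24 h replicate 2 or 3 (log2 0.71 to 1.03), and in WT H2-Aa passed at 1.26 without 24 h replicate 3.

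The lymphocyte genes were at or near 0. Cd3e, part of the T cell receptor complex, was listed at 0 except for 0.02 FPKM in WT 0 h replicate 2, 0.06 FPKM in β8ITG-cKO 0 h replicate 3 and 0.03 FPKM in β8ITG-cKO 24 h replicate 2. Cd79a, part of the B cell receptor, was listed at 0 except for 0.06 FPKM in β8ITG-cKO 24 h replicates 2 and 3. Neither could be tested at these levels.

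**Figure D3:**
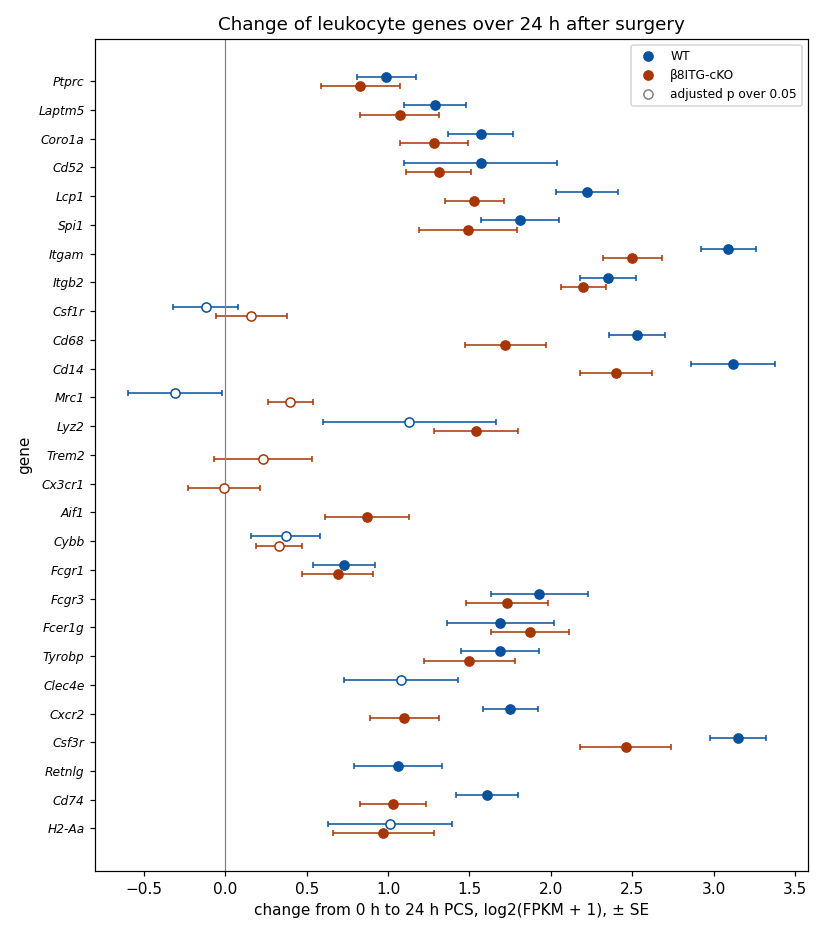
Change from 0 h to 24 h PCS on the log2(FPKM + 1) scale with its SE for each gene tested in WT (blue) or β8ITG-cKO (brown), with open points where the adjusted p was over 0.05. Csf3r, Cd14 and Itgam lie farthest to the right in WT, and Csf1r and Mrc1 lie near 0 with open points in both genotypes.

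The promoters of the 41 genes were read for the letters that PU.1 binds. RefSeq (GRCm38.p6) had a promoter window for 32 of the 41 genes, not for Spi1, Tyrobp, Itgb2, Adgre1, Itgal, Cd52, Cd74, Cd14 and Csf1r. The motif GAGGAA, on either strand, lay within the 250 bases before the start of 18 of the 32 (56.2%), beside 23.1% of 27018 promoters of all genes. The longer AGAGGAA, which contains it, lay in 10 of the 32 (31.2%), beside 8.63% of all. Of the 15 with a window that passed as higher in either genotype, 9 (60%) held GAGGAA, near the 56.2% of all 32. Whether the motif goes with a rise was not tested. A match is a description of letters and not evidence of binding. The 250 bases before the start of 4 genes are shown 5′ to 3′ on the gene's strand, with each GAGGAA or its reverse complement in capitals. Itgam and Cxcr2 rose and hold it, Mrc1 did not pass over time and holds it, and Fcer1g rose and does not.
Itgam (chr7:128062390-128062639, + strand): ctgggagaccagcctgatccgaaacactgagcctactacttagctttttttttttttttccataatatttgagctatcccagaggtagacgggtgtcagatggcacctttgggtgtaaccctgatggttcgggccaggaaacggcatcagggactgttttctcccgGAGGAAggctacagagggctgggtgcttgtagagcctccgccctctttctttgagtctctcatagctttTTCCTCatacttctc
Cxcr2 (chr1:74153744-74153993, + strand): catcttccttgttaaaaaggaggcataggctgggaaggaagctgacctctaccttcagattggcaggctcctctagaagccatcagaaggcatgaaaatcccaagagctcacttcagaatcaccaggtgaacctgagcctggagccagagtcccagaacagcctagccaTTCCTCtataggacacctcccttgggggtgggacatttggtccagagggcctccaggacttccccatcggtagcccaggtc
Mrc1 (chr2:14229164-14229413, + strand): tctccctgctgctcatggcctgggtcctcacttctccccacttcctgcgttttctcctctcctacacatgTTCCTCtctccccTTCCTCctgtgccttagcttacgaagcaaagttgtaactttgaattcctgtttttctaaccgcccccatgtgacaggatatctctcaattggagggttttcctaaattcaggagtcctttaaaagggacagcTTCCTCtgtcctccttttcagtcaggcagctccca
Fcer1g (chr1:171234350-171234599, - strand): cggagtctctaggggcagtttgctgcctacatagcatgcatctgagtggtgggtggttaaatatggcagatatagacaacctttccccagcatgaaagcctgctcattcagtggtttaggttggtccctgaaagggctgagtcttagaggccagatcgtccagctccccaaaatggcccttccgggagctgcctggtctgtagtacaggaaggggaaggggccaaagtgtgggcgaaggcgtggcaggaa

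In Itgam the motif begins 84 bases before the start on the gene's strand and, on the opposite strand, 15 bases before it. In Cxcr2 it begins 81 bases before the start, and Mrc1 holds 3 copies, all on the opposite strand.

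The genotypes were then compared at each time. At 24 h, 30 of the 41 genes were tested and 0 passed in either direction in the limma fit, where 5.64% of 15366 genes passed as higher in β8ITG-cKO and 0.644% as lower (3.37% and 0.286% were called), so 0 were called. At an unadjusted p under 0.05, 5 genes were lower in β8ITG-cKO and 0 higher, where 6.2% of all genes tested were lower and 14.2% higher. These were Itgam, Cxcr2, Cd14, Lcp1 and Retnlg. Of the 30, 23 had a lower fitted value in β8ITG-cKO and 7 a higher one, beside 45.6% and 54.4% of all genes, with a median log2 difference of -0.19 beside 0.03 over all genes. In 3 genes (Itgam, Lcp1 and Cxcr2) all 3 β8ITG-cKO libraries lay below all 3 WT libraries, where 9% of all genes did.

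For Itgam the log2 difference of β8ITG-cKO from WT at 24 h was -0.59 (95% confidence interval -1.05 to -0.13, adjusted p = 0.141). It was -0.61 (-1.07 to -0.15, adjusted p = 0.132) for Cxcr2 and -0.52 (-0.95 to -0.1, adjusted p = 0.158) for Lcp1. For Cd14 it was -0.81 (-1.45 to -0.17, adjusted p = 0.149), with 1 β8ITG-cKO library above the lowest of WT. Without WT 24 h replicate 3, Cd14 passed at -1.07 and was called. Csf3r, at -0.58, had an interval of -1.25 to 0.09 (adjusted p = 0.312). These intervals cover both small and sizeable differences, and the missed threshold does not show that the genotypes were alike.

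The β8ITG-cKO 24 h libraries were uneven, and so were those of both 0 h groups. Of the 17 genes with a group mean of at least 2 FPKM that passed in any comparison, replicate 3 of β8ITG-cKO 24 h was the highest of its group in 15. Replicate 1 was the highest in 12 at β8ITG-cKO 0 h and replicate 2 in 11 at WT 0 h. At WT 24 h replicates 1, 2 and 3 were the highest in 6, 5 and 6. The 41 genes summed to 93.94, 95.77 and 152.1 FPKM in β8ITG-cKO 24 h replicates 1, 2 and 3, and to 148.53, 153.61 and 122.19 FPKM in the WT 24 h libraries. Replicate 3 of β8ITG-cKO thus lay within the WT range and the other 2 below it. At 0 h the sums were 28.09, 33.26 and 19.59 FPKM in WT and 32.62, 23.09 and 26.84 FPKM in β8ITG-cKO, which overlapped.

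**Figure D4:**
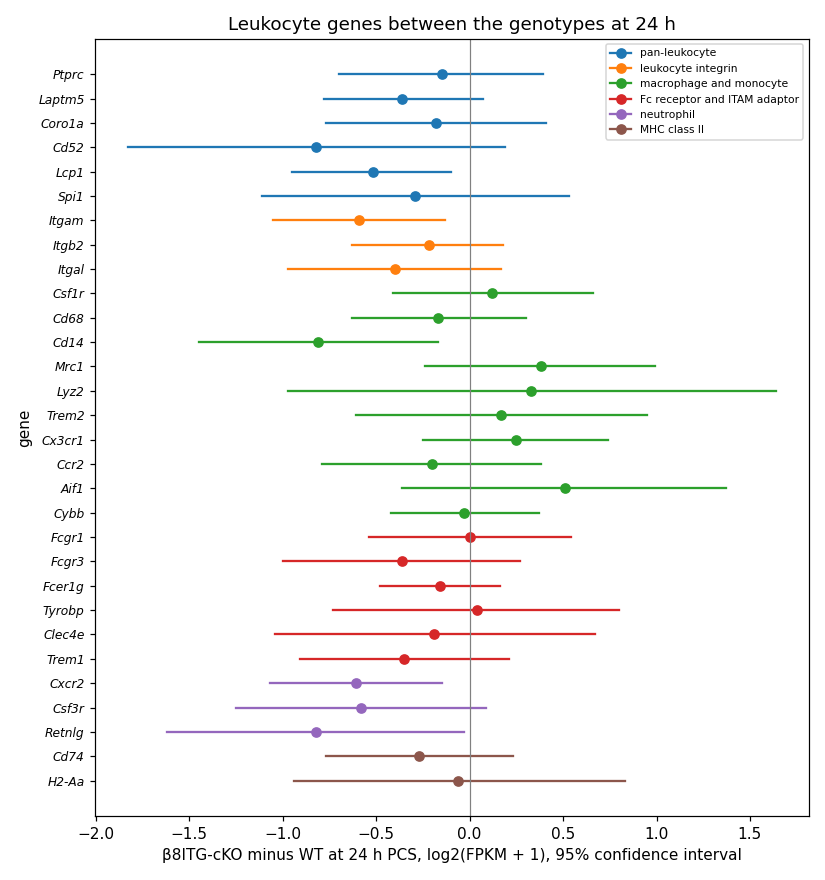
Difference of β8ITG-cKO from WT at 24 h PCS on the log2(FPKM + 1) scale with its 95% confidence interval, for the 30 genes tested, coloured by role. Intervals of 5 genes, Lcp1, Itgam, Cd14, Cxcr2 and Retnlg, lie wholly below 0 before adjustment, and 0 genes passed after adjustment.

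At 0 h, 12 genes were tested between genotypes and 0 passed in the limma fit, where 4.18% of 14708 genes passed as higher in β8ITG-cKO and 2.75% as lower (1.35% and 1.18% were called). At an unadjusted p under 0.05, where 13.9% of all genes were higher and 10% lower, there was 1 gene, Cd68, whose 3 β8ITG-cKO libraries all lay above the WT ones (log2 0.65, adjusted p = 0.134). The groups of 18% of all genes stood apart in that direction. Csf1r, Mrc1, Lyz2, Fcer1g and Cd74 overlapped between the genotypes at 0 h. Whether the change over time differed between genotypes was tested as an interaction over all 12 libraries. Of the 25 genes tested 0 passed in the limma fit, where 6.83% of 15262 genes passed with a larger log2 change in β8ITG-cKO and 2.56% with a smaller one. At an unadjusted p under 0.05, 14.7% of all genes had a larger and 9.51% a smaller change in β8ITG-cKO. There were 4 of the leukocyte genes, all with a smaller change, namely Cd68 (-0.81, adjusted p = 0.133), Lcp1 (-0.7, adjusted p = 0.119), Cxcr2 (-0.66, adjusted p = 0.157) and Itgam (-0.59, adjusted p = 0.156). Without β8ITG-cKO 24 h replicate 3, Itgam passed at -0.78. The comparisons at 24 h and over time share their 24 h libraries, so these are not separate observations.

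Genes of other cells moved with some of these comparisons. The 8 red blood cell and platelet genes summed to 157.2, 77.36 and 68.9 FPKM at WT 0 h, 41.24, 230.58 and 182.91 FPKM at WT 24 h, 18.12, 7.99 and 12.87 FPKM at β8ITG-cKO 0 h and 208.77, 182.55 and 94.66 FPKM at β8ITG-cKO 24 h. In WT 0 of the 6 tested passed over time (1 at an unadjusted p under 0.05), where 20.9% of all genes tested passed as higher. WT 24 h replicate 1, at 41.24 FPKM, had a sum of the 41 genes of 148.53 FPKM. In β8ITG-cKO all 6 tested passed as higher, where 35.4% of all genes tested did. β8ITG-cKO 24 h replicate 3, at 94.66 FPKM, had a sum of the 41 genes of 152.1 FPKM. Retina photoreceptor genes were higher in β8ITG-cKO at 24 h in 10 of 10 (summed 879 to 1040 FPKM, beside 75.9 to 148 FPKM in WT) and reached 1201 FPKM in WT 0 h replicate 2. Lens genes moved the opposite way over the same 24 h. Lens fiber genes passed as lower in 7 of 8 in WT (summed 3950 to 5240 FPKM at 0 h and 750 to 1530 FPKM at 24 h) and in 8 of 8 in β8ITG-cKO (5600 to 6140 FPKM and 883 to 910 FPKM). Of the 10 lens epithelium genes, 5 passed as lower and 1 as higher in WT, and 8 passed as lower in β8ITG-cKO. Of 6 endothelial genes, 3 were tested over time in β8ITG-cKO and 3 were too low. Those tested (Kdr, Pecam1 and Cdh5) all passed as higher, where 35.4% of all genes tested did. Pecam1 and Cdh5 were tested only through 24 h, with 0 h means of 0.237 and 0.285 FPKM. Kdr was also called higher in β8ITG-cKO than in WT at 24 h (log2 1.56 ± 0.28, adjusted p = 0.0173). In WT the 1 endothelial gene tested over time did not pass. FPKM are shares of a library, and the part of blood, retinal, lens or endothelial RNA in the leukocyte results was not tested.

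**Figure D5:**
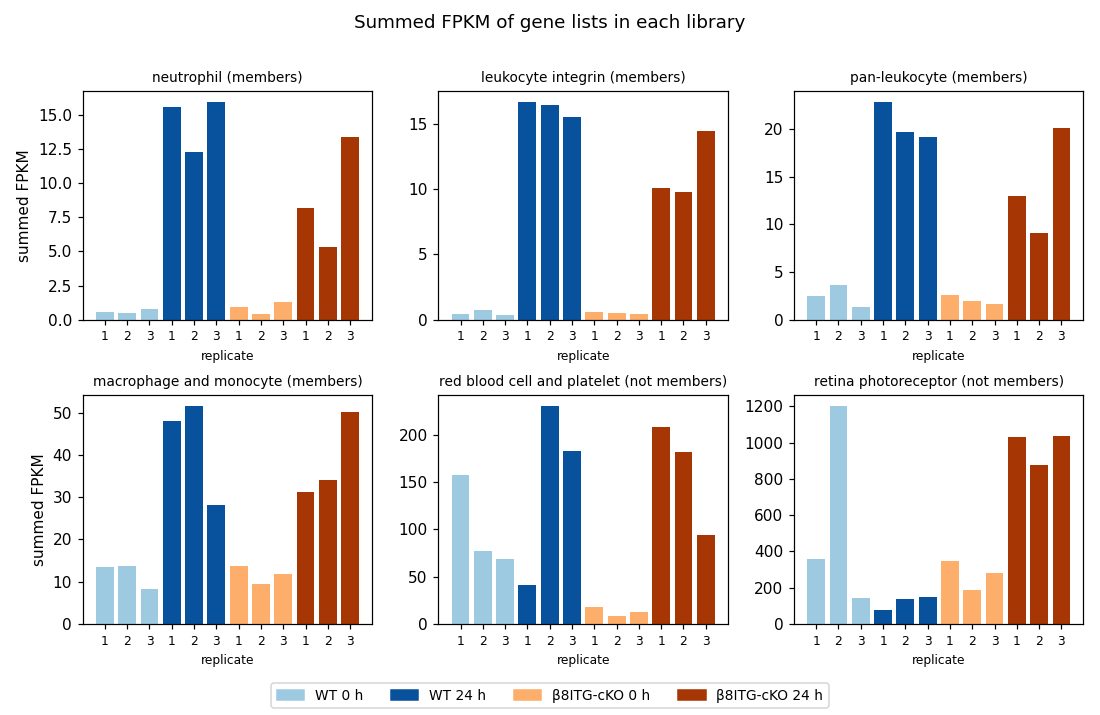
Summed FPKM of 4 lists of the leukocyte genes and of red blood cell and retina photoreceptor genes in each library, by replicate number and coloured by group. The 4 leukocyte lists stand higher at 24 h in both genotypes, with β8ITG-cKO replicate 3 the highest of its group, while the red cell list is lowest at β8ITG-cKO 0 h and the photoreceptor list is high at β8ITG-cKO 24 h and in WT 0 h replicate 2.

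The ligands of these receptors were measured in the same libraries. Of 12 ligand genes, 8 passed as higher at 24 h in WT and 9 of 11 tested in β8ITG-cKO, with 0 lower. Over all genes tested, 20.9% in WT and 35.4% in β8ITG-cKO passed as higher. Csf3, which encodes G-CSF, the ligand of CSF3R, was listed at 0, 0.29 and 0.14 FPKM at WT 0 h and had 10.12, 60.41 and 27.16 FPKM at WT 24 h. In β8ITG-cKO it was listed at 0 in all 3 libraries at 0 h and had 10.99, 7.46 and 1.96 FPKM at 24 h. The change passed in both genotypes (adjusted p = 0.00126 and 0.00205). Cxcl2, a ligand of CXCR2, had 1.54, 4.80 and 1.61 FPKM at WT 0 h and 19.79, 58.88 and 30.50 FPKM at WT 24 h. The gene in β8ITG-cKO was listed at 0.04, 0.32 and 0 FPKM at 0 h and had 13.11, 10.81 and 12.43 FPKM at 24 h. It was lower in β8ITG-cKO at 0 h (adjusted p = 0.0292), and at 24 h the groups did not overlap but the difference did not pass (adjusted p = 0.0635).

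Ccl2, the ligand of CCR2, differed most at 0 h. It had 309.71, 189.46 and 104.97 FPKM at WT 0 h and 3.18, 6.87 and 3.73 FPKM at β8ITG-cKO 0 h (log2 difference -5.1 ± 0.39, adjusted p = 0.000905). At 24 h it had 204.82, 280.76 and 235.59 FPKM in WT and 183.14, 177.08 and 235.56 FPKM in β8ITG-cKO, which overlapped (adjusted p = 0.464). Its receptor gene Ccr2 was at most 0.03 FPKM at 0 h in both genotypes. The 1 ligand that passed between genotypes at 24 h, named after its values were seen, was the CXCR2 ligand Cxcl5, lower in β8ITG-cKO by a log2 difference of -1.94 ± 0.43 (adjusted p = 0.0401).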

How the data were processed

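Stranded total RNA libraries were made by the authors from pooled capsules with a low-input kit, and the submitters' processing notes name FastQC, cutadapt 1.12, TopHat2 2.1.0, Cuffdiff 2.2.1, mm10 and GRCm38.p5. The authors deposited FPKM per library and gene from Cuffdiff in 4 tables, 1 for each pair of groups. The FPKM of each of the 12 libraries were identical in both tables that held it. Results of Cuffdiff's own tests and 16 columns of its group values stand in the same tables and were left aside. No read totals were at hand, so absolute depth is unknown. Its relative size came from genes averaging under 0.3 FPKM.

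Each comparison of 2 groups was fitted with limma 3.58.1 (limma-trend, eBayes) in R 4.3.3 on log2(FPKM + 1) over its 6 libraries, for genes averaging 0.5 FPKM or more, with Benjamini-Hochberg adjustment over all genes. Changes on this scale understate those of low genes. The interaction was fitted over 12 libraries. The fit was tested on simulated data. The methods describe the libraries of a group as biological replicates, each of pooled capsules, so p-values measure the spread between pools.

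Each library's values are given for genes with a group mean of at least 2 FPKM that passed in any comparison and for Ptprc, Itgam, Itgb2, Csf3r, Cxcr2, Cd3e and Cd79a. They are also given for some of the 3 highest genes of other lists. Other genes of those lists are described by ranges, sums, counts or changes alone. The genes and lists were chosen with earlier results of these data known. Alternatives were another pseudocount, filter, scaling or fold, a fit of the 12 libraries at once, a replicate block, and each library left out. Gene positions are those of the files (starts counted from 1), and all 41 genes overlapped their RefSeq GRCm38.p6 position. Tables were made with pandas 2.3.3 and numpy 2.4.6 in Python 3.11.15, and figures with matplotlib 3.10.9. The values of 1 gene of the other lists are not reported here.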

Additional observations from a re-analysis of the deposited data

How the results depend on the processing

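The counts of called leukocyte genes stayed within 1.5 times of the reported ones over time, at 13 to 17 in WT and 10 to 15 in β8ITG-cKO, under every alternative run, with 14 and 11 after rescaling each library to a common median. Leaving out 1 library each moved the count called between genotypes at 24 h from 0 to 1 (Cd14, without WT 24 h replicate 3) and the count past the threshold for the interaction from 0 to 1 (Itgam, without β8ITG-cKO 24 h replicate 3), and gave 0 otherwise. With 1 fit over all 12 libraries, Itgam passed between genotypes at 24 h but was not called. Of the genes that passed over time, 15 of 18 in WT and 16 of 20 in β8ITG-cKO passed under every alternative that could be run for them, and 0 reversed. The exceptions were Cd52, Fcgr1 and Retnlg in WT and Ptprc, Aif1, Fcgr1 and H2-Aa in β8ITG-cKO. In WT, Cd52 passed in 6 of 13 alternatives, Fcgr1 in 7 of 12 and Retnlg in 7 of 11. In β8ITG-cKO, Ptprc passed in 8 of 11, Aif1 in 6 of 10, Fcgr1 in 5 of 11 and H2-Aa in 5 of 13. Not all of these losses came from leaving out a library. For Cd52 the highest adjusted p of the limma fit, 0.125, came with no filter on low values. Same-numbered libraries did not deviate together (correlations -0.22 to 0.08), and the main fits used no pairing. Correlations near 0 cannot exclude that same-numbered pools were handled together. With the replicate block, 15 genes were called in WT, 13 in β8ITG-cKO and 0 between the genotypes. H2-Aa then passed in WT and no longer in β8ITG-cKO, and Cd52 no longer passed in WT. Genes near 0.5 FPKM rest on the filter and the pseudocount.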

Other observations

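Beyond the 41 genes, 80 other genes of leukocyte signalling, macrophages, neutrophils, MHC class II and lymphocytes were read. Over time 45 of them were tested in WT and 44 in β8ITG-cKO. As higher, 29 passed in WT and 33 in β8ITG-cKO, beside 20.9% and 35.4% of all genes tested. As lower, 0 passed in WT and 1 in β8ITG-cKO, beside 8.81% and 10.7% of all genes. Among neutrophil genes, S100a9, a calcium-binding alarmin, was at 0 in every WT library at 0 h and had 30.68, 19.28 and 24.15 FPKM at WT 24 h. In β8ITG-cKO it was listed at 0.59, 0 and 0.21 FPKM at 0 h and had 10.22, 5.31 and 15.85 FPKM at 24 h. At 24 h the genotypes did not overlap and the difference did not pass (adjusted p = 0.0862), while the interaction passed (adjusted p = 0.0416). Its partner S100a8 was listed at 0 in all 6 libraries at 0 h and had 18.46, 13.97 and 9.29 FPKM at WT 24 h and 5.52, 1.65 and 5.83 FPKM at β8ITG-cKO 24 h (adjusted p = 0.0658 between the genotypes).

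Among macrophage genes, Lilrb4a, an inhibitory receptor, had 0.03, 0.12 and 0.37 FPKM at WT 0 h and 10.84, 8.23 and 4.89 FPKM at WT 24 h (adjusted p = 0.000537). In β8ITG-cKO, Lilrb4a was listed at 0, 0 and 0.2 FPKM at 0 h and had 4.99, 4.23 and 8.0 FPKM at 24 h. The complement gene C1qc had 4.54, 4.50 and 2.46 FPKM at WT 0 h and 0.28, 1.45 and 2.89 FPKM at WT 24 h, which did not pass (log2 -1.04, adjusted p = 0.085). In β8ITG-cKO it had 1.08, 1.54 and 2.52 FPKM at 0 h and 5.64, 1.03 and 5.33 FPKM at 24 h, which did not pass either (log2 0.73, adjusted p = 0.217), nor did the interaction (adjusted p = 0.127). Its partner C1qa, named after its values were seen, was called higher over time in β8ITG-cKO (log2 0.99 ± 0.25, adjusted p = 0.0141) and did not pass in WT (log2 -0.4, adjusted p = 0.395). At 24 h C1qa did not overlap between the genotypes, and the difference did not pass (log2 1.04, adjusted p = 0.0784), nor did its interaction (adjusted p = 0.0828). Arhgap15, a Rac regulator listed with leukocyte signalling, had 19.41 to 37.21 FPKM in every library, also at 0 h, where Ptprc was at most 0.39 FPKM. H2-DMb1, a class II loading chaperone chain, was lower in β8ITG-cKO at 24 h (log2 -0.77, adjusted p = 0.0452), the 1 gene of these lists to pass between genotypes at that time.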
